A study of Brachypodium distachyon with 11 samples.

Results

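Small nucleolar RNA (snoRNA) genes of Brachypodium distachyon were examined in chromatin immunoprecipitation sequencing (ChIP-seq) peak lists of clock and light-signalling proteins. The members were all 299 genes of biotype snoRNA on chromosomes 1 to 5 in the RefSeq gene table, of 31197 genes on those chromosomes. The genes were chosen by annotation alone, but the class was selected on earlier results of these peak lists, so its binding is given as a description and is set against no chance expectation. A snoRNA gene was counted as bound in a library when a deposited peak overlapped its body by at least 1 bp, and the same count was made with the body extended by 2 kb on each side.

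There were 10 ChIP libraries with a peak list among 11 samples. Seedlings of cultivar Bd21-3, 2 weeks old and grown at 20 °C, carried ELF3_OX, phyC_OX or PRR37_OX, that is, overexpressed ELF3, PHYC or PRR37 protein under a UBIQUITIN promoter with a GFP-FLAG tag, and chromatin was recovered with a FLAG antibody. The 7 ELF3 libraries came from long days (LD) at ZT0, ZT4 and ZT20, from short days (SD) at ZT0, ZT4 and ZT20, and from LL at ZT0, where ZT counts hours from lights on. PHYC had 2 libraries from LD at ZT20 and PRR37 had 1 library from LD at ZT4. All other conditions had 1 library, and nothing in the labels tells whether separate plants went into the PHYC pair, whose spread may then be technical only. No peak list of an untagged line or of the input was used here, so whether the peaks beside snoRNA genes also form without the tagged protein was not tested. The lists held 12345 to 16458 peaks, of which 34 to 526 had q under 0.01, and the sequencing depth behind them is unknown. Ubiquitous overexpression means that the lists show where a tagged protein at raised dose was recovered, in whole seedlings.

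snoRNAs are short, stable RNAs of the nucleolus. Box C/D snoRNAs guide 2′-O-methylation and box H/ACA snoRNAs guide pseudouridylation of ribosomal RNA, and some take part in cutting the ribosomal precursor. In plants many snoRNA genes stand in tight clusters that are transcribed as one long precursor and then cut apart, some lie within introns of protein-coding genes and are released from the host transcript, and others have promoters of their own. ELF3 is a scaffold of the evening complex, which represses its targets at night. PRR37 is a pseudo-response regulator of the clock and PHYC is a phytochrome photoreceptor that signals light to flowering.

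The snoRNA genes were 64 to 268 bp long with a median of 95 bp. Members within 1 kb of each other formed 129 groups, of which 65 were single genes and 64 were clusters that together held 234 members. The largest clusters held 9 genes. Chromosome 1 carried 106 members, chromosome 3 carried 80, chromosome 2 carried 59, chromosome 4 carried 34 and chromosome 5 carried 20. By overlap in the table, 123 members lay in a protein-coding gene, 61 lay in a long non-coding RNA (lncRNA) gene only, and 115 lay between such genes. The table gives these genes only as numbered loci, without the guide class, the target base, the strand or the exon structure of the host.

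Few snoRNA gene bodies were bound, and more members had a peak within 2 kb, a window far wider than the genes themselves. In each list 9 to 14 of the 299 bodies overlapped a peak, and 110 to 149 of the genes had a peak within 2 kb. ELF3 in LD bound 13 bodies at ZT0, 11 at ZT4 and 14 at ZT20, where 27.1%, 26.4% and 26.6% of all genes were bound. ELF3 in SD bound 9 bodies at each time, where 26.3%, 24.4% and 26.5% of all genes were bound at ZT0, ZT4 and ZT20. ELF3 in LL bound 12 bodies against 29.6% of all genes, PHYC bound 12 and 10 bodies against 23.5% and 20.1%, and PRR37 bound 10 bodies against 21.4%. The body counts cannot be read directly against those shares, because the median gene of the table was 2896 bp long.

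Within 2 kb the median share over libraries was 40.6% of the members, against 41.9% of all genes, and single libraries departed from this in both directions. ELF3 in LD had a peak within 2 kb of 149 members (49.8%) at ZT0, 110 (36.8%) at ZT4 and 123 (41.1%) at ZT20, against 43.8%, 42.3% and 42.2% of all genes. ELF3 in SD had 135 (45.2%), 117 (39.1%) and 120 members (40.1%) at the same times, against 42.4%, 39.9% and 41.7% of all genes, and ELF3 in LL had 125 (41.8%) against 46.4%. PHYC had 120 (40.1%) and 136 members (45.5%), against 39% and 35.6% of all genes, and PRR37 had 114 (38.1%) against 36%. The share of members was the higher one in 5 libraries, by most in the second PHYC library, and the lower one in the other 5. Fewer tRNA genes (median 27.5%), miRNA genes (24.5%) and rRNA genes (11.8%) had a peak within 2 kb, and snRNA genes (37.2%) and protein-coding genes (44.5%) stood on either side of the snoRNA genes.

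**Figure D1:**
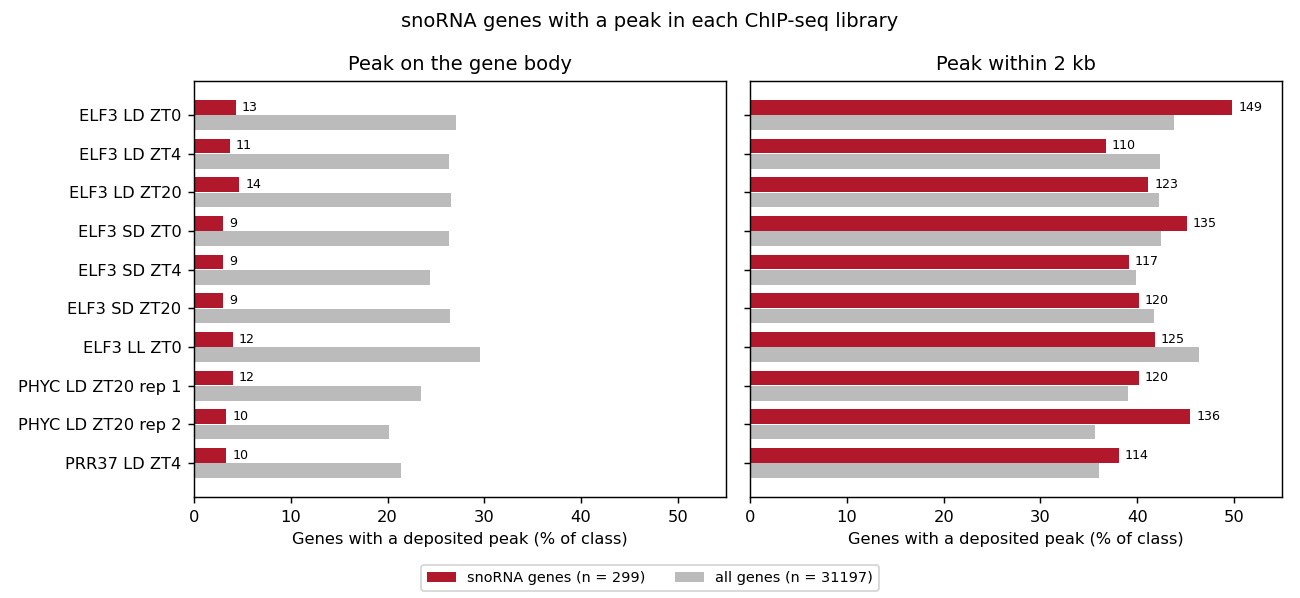
Share of the 299 snoRNA genes (red, with the number of genes) and of all 31197 genes (grey) with a deposited peak on the gene body (left) and within 2 kb (right), in percent, for each of the 10 libraries. On the body 9 to 14 snoRNA genes were bound in every library, and within 2 kb 110 to 149 were.

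Over all 10 lists, 26 members had a peak on the body in at least 1 library, where 51% of all genes did, and 3 members had one in all 10 libraries, where 8.03% did. Within 2 kb, 209 members had a peak in at least 1 library and 51 had one in all 10, where 72.7% and 15.1% of all genes did. Another 90 members had no peak within 2 kb in any list. The lists were called at a permissive threshold, p under 0.1, and few of these peaks were strong. At the q under 0.01 that the study's methods name, 3 members kept a peak on the body (2.36% of all genes did) and 12 kept one within 2 kb (3.71% of all genes). At p under 0.001, 9 members had a peak on the body in at least 1 library and none had one in all 10. The share of all genes was not counted at this threshold, so these counts describe the members only.

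Because snoRNA genes are short, the share of base pairs covered by peaks was also compared. Peaks covered 1.82% to 2.90% of the members' base pairs (median 2.35% over 10 libraries), against 1.32% to 1.74% of the chromosomes as a whole (median 1.52%). The median was 0% over rRNA genes, 1.66% over lncRNA genes, 2.15% over the bodies of protein-coding genes, 2.45% over tRNA genes, 2.97% over miRNA genes and 12.0% over snRNA genes, whose RNAs build the spliceosome.

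The ground beside the groups was covered more than the groups themselves. Peaks covered a median of 2.2% of the spans of the 129 groups, 5.56% of the first 250 bp outside them (range 4.63% to 7.36%), 4.41% of the next stretch up to 500 bp and 2.65% of the stretch from 501 to 1000 bp. From 3001 to 5000 bp away the median was 1.39%. The first 250 bp were covered more than the spans in all 10 libraries, and 2.77 to 4.84 times as much as the chromosomes as a whole (median 3.79). In the 43 groups with no end of a protein-coding gene within 2 kb of any member the ratio was 2.41 to 4.67 (median 3.71). Other short RNA genes also had covered flanks, with medians over the first 250 bp of 9.26% beside snRNA genes, 4.15% beside miRNA genes and 3.35% beside tRNA genes.

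Where the peaks lay differed with where the snoRNA genes lay. Beside the 66 groups between genes, peaks covered a median of 7.40% of the first 250 bp (range 6.09% to 8.60%), and beside the 14 groups in lncRNA genes a median of 12.2% (range 8.01% to 16.6%). Beside the 47 groups in protein-coding genes the median was 1.17% (range 0% to 2.01%), against 1.32% to 1.74% of the chromosomes as a whole, and their own spans had a median of 0%. In those groups the coverage was highest further out, with medians of 4.65% from 501 to 1000 bp and 6.06% from 1001 to 1500 bp. The ranges of the groups in protein-coding genes did not overlap those of the groups between genes or in lncRNA genes over the first 250 bp, in these 10 libraries. These ranges count the same groups again in each library, so they do not give the spread between groups. The remaining 2 groups had members of both kinds.

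**Figure D2:**
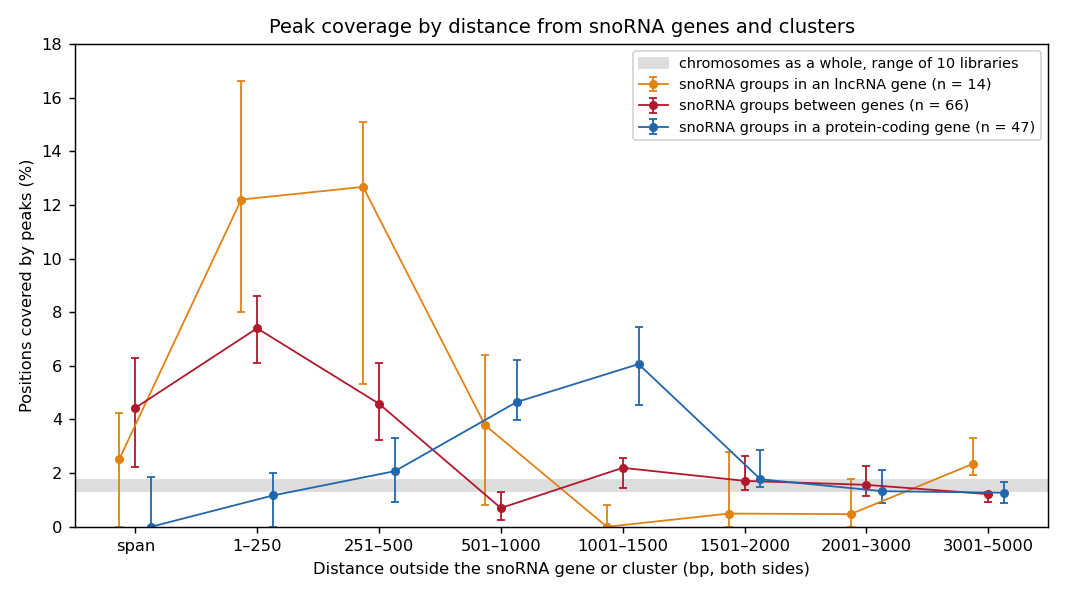
Share of positions covered by peaks (%) in the spans of snoRNA groups and at increasing distance outside them (bp, both sides together), for groups in lncRNA genes, between genes and in protein-coding genes. Points are the median and bars the range over 10 libraries, and the grey band is the range of the chromosomes as a whole (1.32% to 1.74%). Groups in lncRNA genes and between genes had most coverage within 500 bp, and groups in protein-coding genes had most from 501 to 1500 bp.

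The peaks within 2 kb of members in protein-coding genes stood at the ends of protein-coding genes. In each library 86.4% to 96.0% of those peaks had their summit within 500 bp of such an end, against 12.5% to 25% of the peaks within 2 kb of members between genes, and against 47.1% to 52.3% of all peaks of a library. Among the 23 groups with a peak within 2 kb in all 10 libraries, 11 lay in protein-coding genes. Taking for each group the median over libraries of the strongest peak's summit, that summit was within 500 bp of a coding gene end in all 11 (medians of 21 to 341.5 bp) and within 500 bp of a member in none. Single libraries departed from this in 2 of the 11, the cluster starting at LOC112271268, whose summit came as near as 67 bp to a member and as far as 1308 bp from a coding gene end, and the pair starting at LOC112270328, where it came to 499 bp from a member. By the same medians, none of the 10 such groups between genes had the summit within 500 bp of a coding gene end (638.5 to 8188.5 bp). Of these 10 groups, 8 had it within 500 bp of a member. Here too single libraries departed, with the summit up to 1511 bp from LOC112270316 and up to 1256 bp from the pair starting at LOC112270246. Not all groups are separate cases. Among the 11, LOC112269629 and the pair starting at LOC112269628 shared their peak, and among the 10, LOC112270304 and LOC112270243 did. Members in protein-coding genes were also nearer to a coding gene end themselves, with a median distance of 1100 bp, against 1671 bp for members between genes and 2426 bp for members in lncRNA genes, and the part of this distance in the difference was not tested.

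Peaks on snoRNA bodies mostly reached the gene from its side. Over the 10 lists 102 peaks overlapped a member, 8 of them had the summit inside one, and 5 passed q under 0.01. Only 9 of the 102 (8.82%) had the summit within 500 bp of a coding gene end, and all 9 lay on the single gene LOC112270326. The same place is counted again in each list that held a peak there, so the 102 are not separate cases. In clusters of 3 or more genes, 14 of the 78 outer members (17.9%) had a peak on the body in at least 1 library, against 4 of the 106 inner members (3.77%). Of the outer members 6 were bound in 5 or more libraries, and of the inner members 0 were. By place, 14 of 115 members between genes, 9 of 61 in lncRNA genes and 3 of 123 in protein-coding genes had a peak on the body. An outer member stands next to the flank, and the part of this position in the difference between outer and inner members was not tested.

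**Figure D3:**
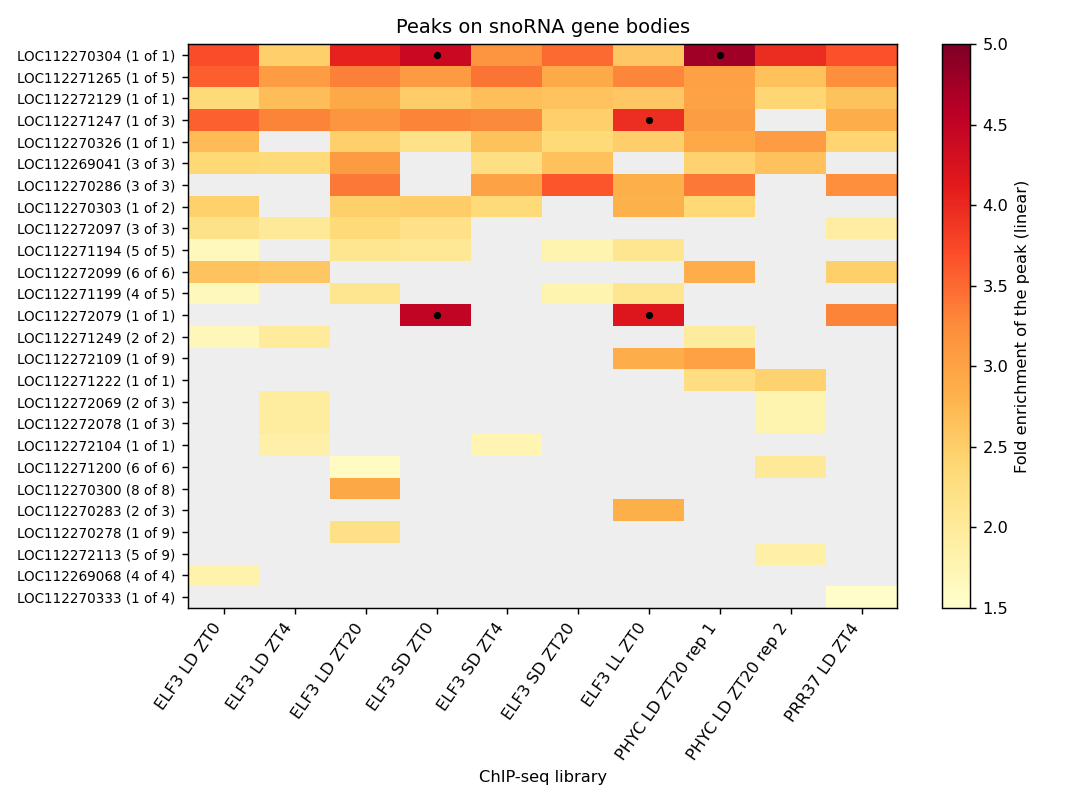
Fold enrichment (linear, as deposited) of the strongest peak on the body of each of the 26 bound snoRNA genes in each of the 10 libraries. Grey cells have no peak, dots mark q under 0.01, and the position of the gene in its cluster is given in parentheses. The upper 3 genes had a peak in all 10 libraries, and 12 of the 26 had one in only 1 or 2.

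The members bound on the body in all 10 libraries were LOC112270304, LOC112271265 and LOC112272129. LOC112270304 is a single gene of 89 bp on chromosome 1, whose peaks spanned positions 4371329 to 4371990 of the deposited coordinates. Its peak had a fold enrichment of 2.47 to 4.42 (median 3.49) in the 7 ELF3 libraries, 4.76 and 3.97 in the PHYC libraries and 3.67 in the PRR37 library. The proteins overlapped, and the extremes were ELF3 in LD at ZT4 (2.47) and the first PHYC library (4.76). The summit lay 35 to 100 bp outside the gene on the same side in every library, and the nearest end of a protein-coding gene was 5061 to 5126 bp from it. The peak passed q under 0.01 in ELF3 SD ZT0 and in the first PHYC library. The neighbouring single gene LOC112270243 had the same peak within its 2 kb window, 1172 to 1237 bp away, and none on its body.

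LOC112271265 is the first of 5 genes in a cluster on chromosome 2, with peaks spanning positions 16777931 to 16778621. The fold enrichment was 2.89 to 3.57 (median 3.30) in ELF3 libraries, 3.01 and 2.65 in PHYC libraries and 3.21 in the PRR37 library. The summit stood 71 to 154 bp outside the cluster, and all peaks covered the first gene in full. The other 4 genes of the cluster had no peak on the body in any list. LOC112272129 is a single gene of 222 bp on chromosome 3, with peaks spanning positions 13666680 to 13667347. Its fold enrichment was 2.34 to 2.91 (median 2.62) in ELF3 libraries, 2.99 and 2.41 in PHYC libraries and 2.63 in the PRR37 library. The summit was inside the gene in 1 library and up to 130 bp beyond it in the others. Folds of different libraries are not measurements on one scale, so these ranges describe the peaks and order neither proteins nor times.

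A further 2 members were bound on the body in 9 libraries, LOC112271247 and LOC112270326. LOC112271247, the first of 3 genes on chromosome 2 (peaks from 26282950 to 26283224), had a peak beside it in all 10 libraries, with folds of 2.48 to 3.96 (median 3.31) in ELF3 libraries, 3.05 and 2.57 in PHYC libraries and 2.85 in the PRR37 library, and in the second PHYC library the peak stopped short of the gene. It passed q under 0.01 in ELF3 LL ZT0, and the peak was also within 2 kb of the other genes of that cluster, LOC112271262 and LOC112271208. LOC112270326, a single gene of 201 bp on chromosome 1, lacked a peak in ELF3 LD ZT4, and its summits were inside the gene or within 56 bp of it. Of all 26 bound members, 12 had a peak in 1 or 2 libraries and 10 had one in 5 or more, so many of the bound bodies changed from list to list.

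Among the flanks of 500 bp with a peak in all 10 libraries, those of LOC112271224 and LOC112272079 had the highest median folds (4.03 and 3.91). LOC112272079 is a single gene between genes on chromosome 3, with peaks spanning positions 47545206 to 47545549. The fold enrichment was 3.20 to 4.50 (median 4.18) in ELF3 libraries, 4.38 and 3.33 in PHYC libraries and 3.32 in the PRR37 library, with the summit 105 to 152 bp outside the gene in all 10. The edge of the peak reached the body in only 3 libraries, ELF3 SD ZT0 (4.50), ELF3 LL ZT0 (4.18) and PRR37 (3.32). LOC112271224 is a single gene of 149 bp in an lncRNA gene on chromosome 2, with peaks from 13758045 to 13758445. It had 3.72 to 4.68 (median 4.04) in ELF3 libraries, 4.89 and 4.01 in PHYC libraries and 3.32 in the PRR37 library, with summits 265 to 298 bp outside the gene and 296 to 329 bp from the end of the coding gene LOC100827466. Both peaks passed q under 0.01 in the same 4 libraries, ELF3 at ZT0 in LD, SD and LL and the first PHYC library. The lists of ELF3 LL ZT0, ELF3 SD ZT0 and the first PHYC library held the most peaks with q under 0.01 (526, 490 and 461). That of ELF3 LD ZT0 held 322, against 34 to 341 in the remaining lists. No test was made of a difference between times, which have 1 library for each condition.

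The highest folds within 2 kb of any group stood at a host gene. LOC112272094 and LOC112272093, a pair in the protein-coding gene LOC100840221 on chromosome 3, had a peak within 2 kb at positions 55673722 to 55674167 in every library. Its fold enrichment was 5.08 to 6.45 (median 6.0) in ELF3 libraries, 6.86 and 4.19 in PHYC libraries and 4.70 in the PRR37 library, and q was under 0.01 in 9 libraries, the exception being the second PHYC library. The summit was 1190 to 1234 bp from the nearer snoRNA gene and 112 to 156 bp from an end of LOC100840221. The cluster of LOC112272126, LOC112272124 and LOC112272125, in LOC100829722 on chromosome 3, was alike in this, with folds of 3.06 to 4.56 (median 3.71) in ELF3 libraries, 3.67 and 2.71 in PHYC libraries and 2.67 in the PRR37 library. Its summits were 709 to 851 bp from a member and 1 to 141 bp from an end of LOC100829722, and q was under 0.01 in ELF3 LD ZT20 and ELF3 SD ZT0. No snoRNA body in either cluster carried a peak. With the members named above, these make up all 12 members that had a peak of q under 0.01 within 2 kb.

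The flanks of the groups were then examined one side at a time. Of the 258 flanks of 500 bp, 29 (11.2%) had a peak in 5 or more libraries and 9 had one in all 10. Of the 29 flanks, 20 held no end of a protein-coding or lncRNA gene, 8 held the end of an lncRNA gene only and 1 held the end of a coding gene. Among all 258 flanks, 224 held neither, 16 held the end of an lncRNA gene only and 18 held the end of a coding gene. The share was 17.1% for snRNA groups, 10.1% for protein-coding genes, 6.79% for miRNA groups, 6.76% for tRNA groups and 5.17% for lncRNA genes, grouped in the same way. Of the 28 snoRNA groups concerned, 27 had the recurrent peak on 1 side only. With such peaks at 11.2% of flanks few groups would have both, so no sidedness was read from this count. Of the 14 groups in lncRNA genes 7 had such a flank, against 14 of 66 between genes and 6 of 47 in protein-coding genes.

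**Figure D4:**
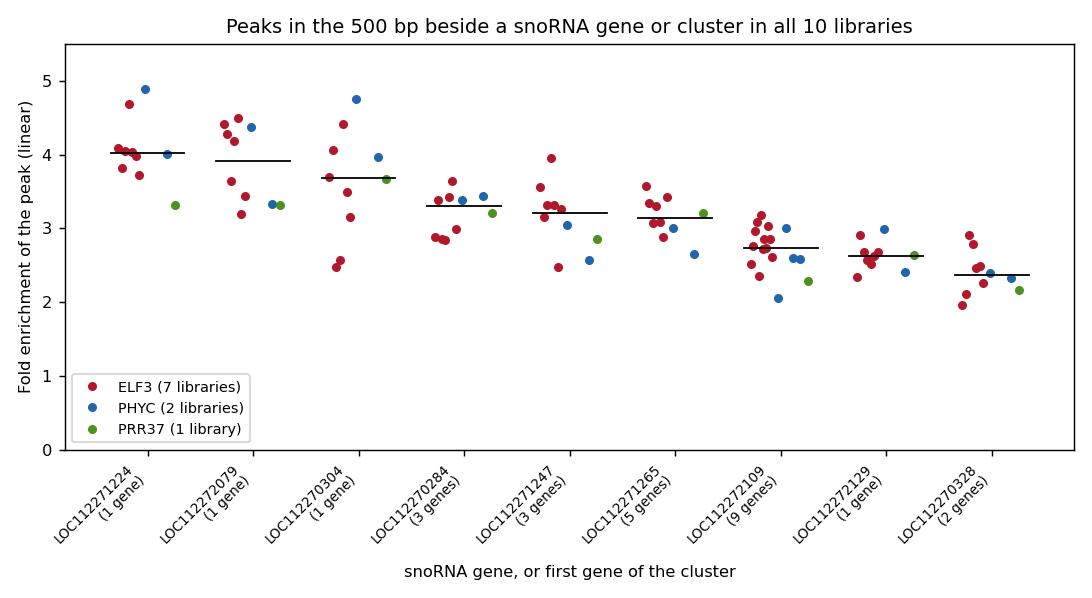
Fold enrichment (linear, as deposited) of each peak in the 500 bp beside the 9 snoRNA genes or clusters that had one there in all 10 libraries, with ELF3 in red, PHYC in blue and PRR37 in green, and the median as a line. A library with more than 1 peak in the flank gives more than 1 point. The highest median was that of LOC112271224 (4.03) and the lowest that of the pair starting at LOC112270328 (2.36). Beside LOC112271224 the PRR37 point (3.32) lay below the ELF3 points (3.72 to 4.68) and the PHYC points (4.89 and 4.01). The PRR37 list also had the lowest median fold over all its peaks (2.16, against 2.26 to 2.40 in the other lists). Folds of different libraries are not on one scale, so the points do not order the proteins.

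The 26 clusters of 4 or more genes held 145 members, and 3 clusters had a peak within 2 kb in all 10 libraries, 16 in 1 to 9 and 7 in none. A body within them was bound in 3 of the 7 clusters between genes, 5 of the 7 in lncRNA genes and 1 of the 12 in protein-coding genes. Beside the cluster of LOC112271265, those with peaks in all 10 libraries were the 9 genes from LOC112272109 to LOC112272146 and the 6 genes from LOC112271268 to LOC112271200. The 9-gene cluster lies in an lncRNA gene on chromosome 3 and had folds of 2.61 to 3.40 (median 2.90) in ELF3 libraries, 3.06 and 2.60 in PHYC libraries and 2.28 in the PRR37 library. All 10 libraries had a peak in the 500 bp before its first gene, counting along the chromosome, none had one in the 500 bp after its last, and a peak reached a body in 3 libraries. The 6-gene cluster lies in the coding gene LOC100825595 and had lower folds, 1.89 to 2.71 (median 2.33) in ELF3 libraries, 2.28 and 2.01 in PHYC libraries and 1.96 in the PRR37 library.

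Next came 2 clusters with peaks in 9 libraries, both in lncRNA genes. The 8 genes from LOC112270245 to LOC112270300 on chromosome 1 had folds of 2.12 to 3.18 in the 7 ELF3 libraries, 2.65 in the first PHYC library and 2.78 in the PRR37 library, with no peak in the second PHYC library. The coding gene end nearest to those summits was 5766 to 6280 bp away. The 6 genes from LOC112272145 to LOC112272099 on chromosome 3 lacked a peak in ELF3 LD ZT20 and had folds of 2.11 to 2.73 in the other 6 ELF3 libraries, 2.86 and 2.66 in PHYC libraries and 2.48 in the PRR37 library. Both clusters had their recurrent flank peak after the last gene, in 9 and 7 libraries, and none before the first.

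Of the clusters in coding genes, the 4 genes from LOC112270256 had a peak within 2 kb in 8 libraries, the 6 from LOC112271238 in 7, the 4 from LOC112270364 and the 4 from LOC112270360 in 6 each, and the 8 from LOC112272166 in 5. Their strongest peaks lay at medians of 67.5, 148, 26.5, 298.5 and 96 bp from a coding gene end, in the same order. The cluster of 4 from LOC112270318 and that of 4 from LOC112269544 had a peak in 2 libraries and that of 4 from LOC112270276 in 1. Of the clusters between genes, the 5 genes from LOC112271197 had peaks in 5 ELF3 libraries (folds 1.66 to 2.10) and in neither PHYC library nor PRR37. These peaks lay on the body of LOC112271194, the last gene, in all 5 and of LOC112271199 in 4. The other genes of the cluster were not bound on the body. The peaks were near the calling threshold, with a −log10 p of 1.29 to 1.94, and ELF3 at ZT4 in LD and SD had none either. The PHYC and PRR37 lists were also the shortest, so no preference for ELF3 was read from this cluster. The 4 genes from LOC112269064 had a peak in 5 libraries, the 6 from LOC112271211 in 3 and the 9 from LOC112272163 in 1. Of the clusters in lncRNA genes, the 4 genes from LOC112270333 had a peak in 5 libraries and the 9 from LOC112270278 in 1. The 7 clusters with no peak within 2 kb in any list were the 5 genes from LOC112270365, 4 from LOC112270313, 5 from LOC112270321, 8 from LOC112270228, 4 from LOC112270237, 5 from LOC112272074 and 5 from LOC112269046. These clusters held 4 to 8 genes, those with a peak held 4 to 9, and clusters without a peak were found in all 3 kinds of place.

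**Figure D5:**
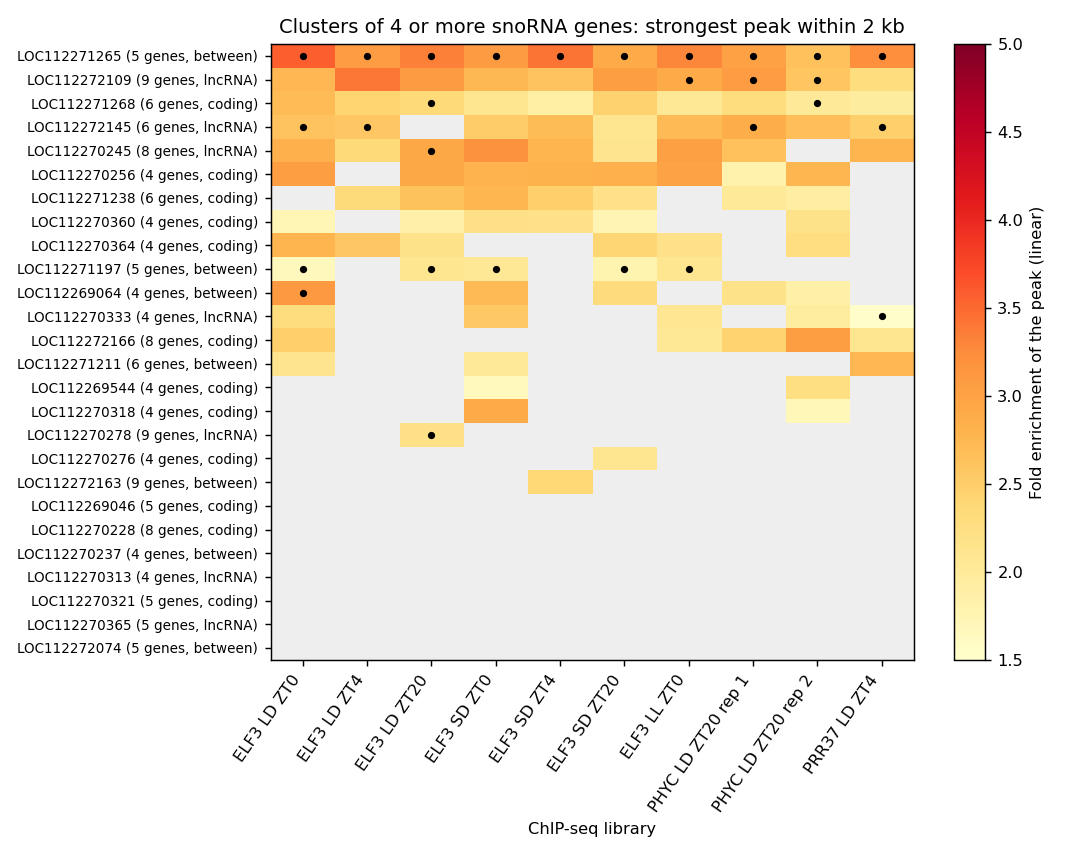
Fold enrichment (linear, as deposited) of the strongest peak within 2 kb of each of the 26 clusters of 4 or more snoRNA genes, named by their first gene with the number of genes and the place (between genes, in an lncRNA gene, in a coding gene), in each of the 10 libraries. Grey cells have no peak and dots mark a peak on a member body. The upper 3 clusters had a peak in all 10 libraries and the lower 7 in none.

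The smaller groups were summarised by counts. Of the 38 clusters of 2 or 3 genes, 32 had a peak within 2 kb in at least 1 library and 10 had one in all 10, and 7 had a peak on a body. Of the 65 single genes, 30 had a peak within 2 kb in at least 1 library, 10 in all 10, and 6 had a peak on the body. A larger group has a wider window, so these counts do not compare like with like.

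The proteins and the photoperiods were compared over libraries. ELF3 libraries bound a mean of 11 ± 2.08 bodies (SD, n = 7), against 10.7 ± 1.15 (SD, n = 3) for the PHYC and PRR37 libraries. The difference of 0.333 members was smaller than the spread between libraries (exact two-sided permutation test over 120 divisions, p = 0.858). Within 2 kb the means were 126 ± 12.9 members in ELF3 libraries and 123 ± 11.4 in the others (difference 2.24, exact permutation p = 0.808). Of all genes, 39.9% to 46.4% had such a peak in ELF3 libraries, 39% and 35.6% in PHYC libraries and 36% in the PRR37 library. The share of members was above that of all genes in the PHYC and PRR37 libraries, and among ELF3 libraries only in LD and SD at ZT0. These tests compared counts of members only and took no account of the shares of all genes. The PHYC pair, 12 and 10 bodies, differed by more than these means did. The comparisons also pooled PHYC with PRR37 and counted both PHYC libraries, whose spread may be technical only, as separate. Each ELF3 library came from a different condition, so the comparisons do not isolate the proteins. All PHYC and PRR37 libraries came from LD, whereas the ELF3 libraries mix LD, SD and LL. Within LD, ELF3 libraries bound a mean of 12.7 ± 1.53 bodies, against 10.7 ± 1.15 in PHYC and PRR37 libraries (SD, n = 3 each), a difference of 2 (exact two-sided permutation p = 0.2, where 3 against 3 allows no less than 0.1). At matched times ELF3 bound 14 bodies at ZT20 against 12 and 10 for PHYC, and 11 at ZT4 against 10 for PRR37. Within 2 kb the means in LD were 127 ± 19.9 members for ELF3 and 123 ± 11.4 for the others (difference 4, exact permutation p = 0.8).

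ELF3 bound more snoRNA bodies in LD than in SD at each time, by 4 at ZT0, 2 at ZT4 and 5 at ZT20. The pair at ZT20 sets lights off in LD against night in SD, so it does not compare like light states. The share of all genes bound was also higher in LD. It was 27.1% against 26.3% at ZT0, 26.4% against 24.4% at ZT4 and 26.6% against 26.5% at ZT20. The means were 12.7 ± 1.53 bodies in LD and 9 ± 0 in SD (SD, n = 3 each), a difference of 3.67 with an SD of 1.53 over the 3 times. The exact sign-flip permutation test gave p = 0.25, two-sided, which is the smallest value that 3 times allow. Lists cut to the same number of strongest peaks (12344 on chromosomes 1 to 5) gave 0, 2 and 4 more in LD, and peaks with p under 0.001 gave 1 fewer, 1 fewer and 3 more. The shortest peak in a list was 179 to 184 bp in the ELF3 libraries from LD and 192 to 202 bp in those from SD, against 186 and 182 bp in the PHYC libraries and 190 bp in the PRR37 library, which also came from LD, and its part in the counts was not tested. Within 2 kb the differences were 14, -7 and 3 members, with means of 127 ± 19.9 in LD and 124 ± 9.64 in SD (difference 3.33, exact permutation p = 0.75).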

How the data were processed

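ChIP-seq peak lists of 10 libraries were used as deposited, 1 list per library, with no pooling. By the study's methods section, bwa placed the reads on Brachypodium genome Bdistachyon_314_v3.1 and MACS2 called the peaks, while the submitters' processing notes name Trimmomatic, Bowtie2, Picard, deepTools, MACS2 and TAIR10. The deposited lists give each peak's fold enrichment (a ratio over background), the −log10 p and −log10 q-value from the authors' MACS2 run, a score and a summit. The score was not used. The lowest −log10 p was 1.00 to 1.01 in every list, which puts the calling threshold at p under 0.1, without the study's q filter. No read counts were used here, so the depth and the counting precision are unknown, and folds describe peaks within a list.

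Genes were placed with the RefSeq table for assembly Brachypodium_distachyon_v3.0, which names its build differently from the study. As a check of the positions, the share of 26977 summits (p under 0.001) within 500 bp of coding gene ends was 65.2%, and it was 18.4%, 21.2% and 19.3% with genes moved by 2000, 10000 and 50000 bp. Only peak coordinates, counted from 1, are printed. Members were joined into clusters within 1 kb, and groups were placed by overlap with coding and lncRNA genes. Counts over libraries were compared by exact two-sided permutation tests in Python 3.11.15 with numpy 2.4.6 and pandas 2.3.3, and the overlap, cluster and permutation steps were tested on simulated data. Named members were those bound on the body in all 10 libraries, all members with a q under 0.01 peak within 2 kb and every cluster of 4 or more genes, and other named members were chosen after their values were seen. The members, lists and rules were chosen with earlier results of these data known. Alternatives were other windows, thresholds, equal list lengths, summit and half-body overlap, other cluster distances and leaving out PHYC or PRR37 libraries, and the flank ratio, the PRR37 alternative and the comparison of proteins within LD were chosen after seeing the data. Start-site sequences and motifs were not analysed here, and the input sample was left out because its labels give conflicting times and it had no peak list used here.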

Additional observations from a re-analysis of the deposited data

Results flagged for a closer look

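The number of snoRNA genes with a peak within 2 kb did not differ between LD and SD in one direction. It was 14 higher in LD than in SD at ZT0 (149 and 135 members), 7 lower at ZT4 (a difference of -7, 110 and 117 members) and 3 higher at ZT20 (123 and 120 members). With 1 library for each condition, the difference between times was not tested.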

How the results depend on the processing

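The counts of bound snoRNA genes depended mainly on the window and the peak threshold. Members bound in at least 1 library, members bound in all 10 and the median per library were 26, 3 and 10.5 as reported. They were 209, 51 and 121.5 with the body extended by 2 kb, 71, 8 and 30.5 with 250 bp, 9, 0 and 3.5 at p under 0.001, and 3, 0 and 0 at q under 0.01. With at least 50% of the body covered by 1 peak, 17 members were bound in at least 1 library with a median of 6, and with the summit within 200 bp of the body 5 members were bound in all 10. Without either PHYC library, the 3 values ran from 25 to 26, from 3 to 4 and from 10 to 11, and without the PRR37 library they were 25, 3 and 11. Lists of equal length gave 24, 3 and 9.5.

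Clusters with a bound member in all 10 libraries numbered 3, also with joins of 500 bp or 2 kb, but 23 with members extended by 2 kb and 0 at p under 0.001. The coverage of the first 250 bp beside groups was 3.79 times that of the chromosomes. It was 6.82 times at p under 0.001, and at q under 0.01 the median was 0, with 4 of 10 libraries above 1. It ran from 3.68 to 3.83 with the other joins, lists of equal length, without a PHYC library and away from coding gene ends.

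The difference between ELF3 and the PHYC and PRR37 libraries, 0.333 members, was -0.429 at p under 0.001 (exact permutation p = 0.825) and -0.333 in lists of equal length (p = 0.833, exact permutation). It ran from 0 to 1 without a PHYC library and was 0 without the PRR37 library. The LD minus SD difference, 3.67, was -0.667 at q under 0.01 (exact permutation p = 1), and ran from 3 to 4.5 when a library and its pair were left out. The causes were not tested. LD and SD were paired by time, and no replicate block was used because no groups shared more than 1 replicate number. Unknown depth limits any reading of an absent peak.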
